A study of Homo sapiens with 12 samples.

Results

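Mitochondrial ribosomal protein (MRP) genes are nuclear genes for the protein subunits of the ribosome inside mitochondria. They were taken here as all protein-coding genes whose symbol is MRPL or MRPS followed by a digit. There were 78 of them, 49 MRPL and 29 MRPS, among 60604 gene identifiers in the count table. They lay on 21 chromosomes, and every one had at least 1 read count in each of the 12 libraries.

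RNA sequencing was done on HEK293T cells, a human embryonic kidney line that carries the SV40 large T antigen, 48 h after lipofection in 100 mm dishes. The first group received no plasmid. The second received sgRNA-dCas9-VP160-P2A-EGF, which encodes dCas9, a Cas9 that binds DNA without cutting it, fused to the VP160 transcription activator. The third received that vector with 6 CD34-gRNAs, guides for the promoter of CD34. The plasmid load was 5.4 pmol. One description says that the controls were not transfected, another that they had the reagents without DNA. A plasmid lacking dCas9-VP160 was not among the groups, so effects of plasmid delivery and of dCas9-VP160 cannot be told apart. Each group had 2 experiments (batches of cells) with 2 technical replicates each, hence 4 libraries. Technical replicates were summed, and the tests have n = 2 experiments per group.

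The mitochondrial ribosome translates the few messenger RNAs of the mitochondrial genome, which encode core subunits of the respiratory chain. Its ribosomal RNAs come from the mitochondrial genome, while all its proteins are made in the cytosol and imported. Some of these proteins have counterparts in bacterial ribosomes, and others occur in mitochondria and have none. GABPA, an ETS-family factor, NRF1 and YY1 are factors known to act at promoters of nuclear genes for mitochondrial proteins.

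The libraries held 6750035 to 11932244 gene counts. The guide target CD34 had 664 to 942 counts in the guide libraries, 7 to 10 with dCas9-VP160 alone and 13 to 28 without plasmid. Markers of blood (PTPRC), liver (ALB) and endothelium (PECAM1) had 0 to 4 counts in any library. The epithelial marker EPCAM had 1 to 11 and the glial marker GFAP 10 to 35. Levels are given as CPM, the read counts scaled to a common library size. The 7 markers of other cell types together took 123 to 160 CPM without plasmid, 54.9 to 71.0 with dCas9-VP160 and 51.9 to 65.2 with guides, most of it from the collagen genes COL3A1 and COL1A1. Their part in the MRP results was not tested. Spike-in RNA took 0.719% and 0.404% of the counts in the replicates of experiment 1 without plasmid and at most 0.00818% elsewhere.

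Of the 78 genes, 69 had a promoter entry in RefSeq (GRCh38.p14), covering 250 bases before to 50 bases after the first listed start. These windows were searched on both strands for 3 motifs, 1 each for the ETS family, NRF1 and YY1. The ETS motif CCGGAAG was in 29 of the 69 (42.0%), against 14.5% of the windows of 14829 protein-coding genes. The YY1 motif AAGATGGC was in 20 (28.99%), against 3.999%. The NRF1 motif, searched as its palindrome of 10 bases, was in 1, MRPL17 (1.45%), against 1.75%. The motifs do not contain one another. A match is a string of letters and not a shown binding site.

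For the ETS motif, the matches of the 4 genes with the largest rise under dCas9-VP160 and of the 1 gene that fell are shown, each as 30 bases read 5′ to 3′ on the gene's strand with the motif, or its reverse complement, in capitals.
MRPS31, chr13:40771204-40771233, minus strand, motif from base -32: aaggcgccaggCCGGAAGcggaagagaggg
MRPS18C, chr4:83455825-83455854, plus strand, motif from base -222: gggctcgcggaCCGGAAGcacgcataaact
MRPL52, chr14:22829871-22829900, plus strand, motif from base -5: ggccacgcctaCTTCCGGctaccccggcta
MRPL3, chr3:131502985-131503014, minus strand, motif from base -32: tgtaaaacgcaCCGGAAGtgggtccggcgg
MRPL30, chr2:99181028-99181057, plus strand, motif from base -145: ggtctgctgcgCTTCCGGgaagtggtcatg
Of the 39 ETS matches, 33 began within 100 bases of the start, and 18 read forward and 21 in reverse.

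The YY1 matches lay elsewhere. Of 21, 15 began in the 50 bases after the start and 17 read forward. The 2 forward matches before the start are both in MRPL52, and in the 15 after it the ATG inside the motif reads along the transcript. The matches of the 4 genes with the largest rise that had the motif after the start, MRPS18B, MRPS30, MRPS10 and MRPL22, and of MRPS27, which fell, are given below as 30-base windows.
MRPS18B, chr6:30617852-30617881, plus strand, motif from base 24: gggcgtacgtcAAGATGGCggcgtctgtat
MRPS30, chr5:44808949-44808978, plus strand, motif from base 14: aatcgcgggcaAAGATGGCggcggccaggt
MRPS10, chr6:42217834-42217863, minus strand, motif from base 10: tcgggaccggcAAGATGGCggcgcggacag
MRPL22, chr5:154941093-154941122, plus strand, motif from base 36: gtagcgggagggcgaAAGATGGCggcggca
MRPS27, chr5:72320206-72320235, minus strand, motif from base 17: tggtacgctccAAGATGGCtgcctccatag
With the bases before the start alone, YY1 matches remained in 5 of 69 promoters (7.25%, against 1.40% of protein-coding genes) and ETS matches in 23 (33.3%, against 12.02%).

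The levels of the 78 genes spanned more than 2 orders of magnitude per length. On the scale of CPM per kilobase of exon, averaged over the 6 libraries summed over technical replicates, MRPL14 was highest at 116. It was followed by MRPL51 at 109, MRPS26 at 103, MRPS34 at 103 and MRPL15 at 97.6. Exon length counted all annotated exons of a gene, so the order depends on the annotation. MRPL14 had the shortest exon length of the 78 genes, 959 bases, and MRPL46 had 6432. MRPL14 and MRPL15 encode large-subunit proteins with bacterial counterparts, MRPL51 encodes a mitochondria-specific large-subunit protein, and MRPS26 and MRPS34 encode mitochondria-specific small-subunit proteins. The lowest were MRPS24 at 0.29, MRPL53 at 0.73, MRPL38 at 1.24, MRPS28 at 2.32 and MRPL46 at 2.41. Several of the low genes share exon sequence with a neighbour: 45.2% of the exon bases of MRPL53 lie in CCDC142, 41.1% of those of MRPL38 lie in other genes, and MRPS24 shares 23.2% with the readthrough gene URGCP-MRPS24, which had 0 counts. The sources used here do not say how such reads were counted, and its part in these low levels was not tested. In all, 41 of the 78 genes share some exon base with another gene. The kit does not mark strand, so reads from overlapping genes on opposite strands cannot be told apart. This holds for a high gene too: NCAPD2 on the opposite strand shares 31.3% of the exon bases of MRPL51. Over all libraries NCAPD2 had 30818 counts and MRPL51 18803, and the part of NCAPD2 in the MRPL51 level was not tested.

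**Figure D1:**
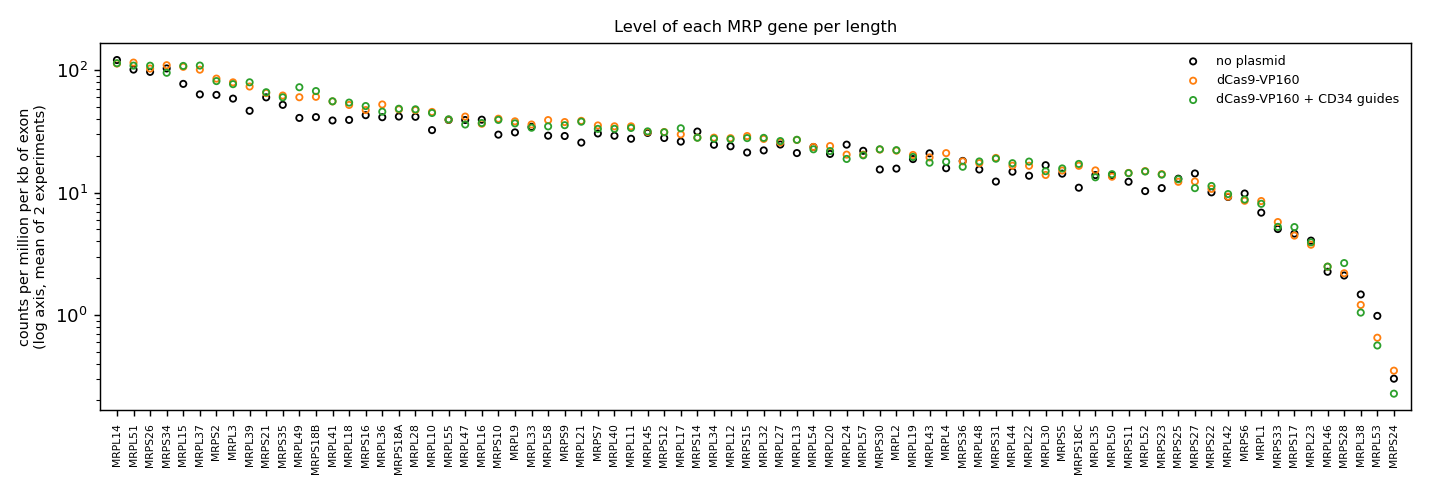
Level of each of the 78 MRP genes in CPM per kilobase of exon (vertical log axis, mean of 2 experiments), ordered by the mean over all groups, with 1 point per group. The order runs from MRPL14 at 116 to MRPS24 at 0.29 averaged over all libraries, and the no-plasmid points lie below the others for many genes such as MRPL37, MRPL39 and MRPS18B.

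In cells with dCas9-VP160 the MRP genes as a set took a larger part of the RNA than in cells without plasmid. Their summed level was 5088, 5003, 5570 and 5235 CPM in the 4 no-plasmid libraries (experiment 1 replicates 1 and 2, then experiment 2 replicates 1 and 2, the order used throughout). With dCas9-VP160 it was 5966, 6261, 6187 and 6316 CPM, and with guides 6034, 5978, 6404 and 6277 CPM. No no-plasmid library reached the lowest library of either other group, whereas the dCas9-VP160 and guide libraries overlapped. The mean of the experiments was 5224 ± 253 CPM without plasmid, 6182 ± 97.7 with dCas9-VP160 and 6173 ± 236 with guides (SD, n = 2), which is 1.18 times the no-plasmid level in both cases. An exact permutation test over 2 experiments against 2 could not pass the threshold and was not run. CPM are relative values, so a larger part of the RNA and more RNA per cell cannot be told apart, nor can fewer or more cells of a type.

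The RNAs that the mitochondrial ribosome reads and contains went the other way. Mitochondrially encoded genes took 8.69%, 8.41%, 8.78% and 8.31% of the counts without plasmid and 5.57%, 5.63%, 5.14% and 5.41% with dCas9-VP160. Of the 15 mitochondrial ribosomal and messenger RNAs tested, 14 fell and 0 rose (24.6% and 26.6% of all genes tested), with a median log2 fold change of -0.74. MT-CYB, the cytochrome b messenger RNA, fell by 0.93 on the log2 scale and MT-RNR2, the large ribosomal RNA, fell by 0.69, while MT-RNR1, the small ribosomal RNA, fell by 0.34 (edgeR quasi-likelihood test, adjusted p = 3.9e-19, 2.3e-17 and 4.0e-08). MT-ND6, MT-ND4L and MT-CO3 fell by 0.92, 0.90 and 0.89. The kit does not mark strand, so reads from opposite strands of the mitochondrial genome could not be told apart. MT-ATP8 had a value of -1.16 that did not pass the test (adjusted p = 0.11). Leaving out all mitochondrially encoded genes before scaling left 44 MRP genes higher and 5 lower in this comparison, with 5173 and 4946 of all 19557 genes then tested. In the guide libraries the mitochondrially encoded share was 5.57% and 5.59% in replicate 1 and 7.50% and 7.44% in replicate 2, so that the technical replicates differed there by more than the 2 experiments did.

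**Figure D2:**
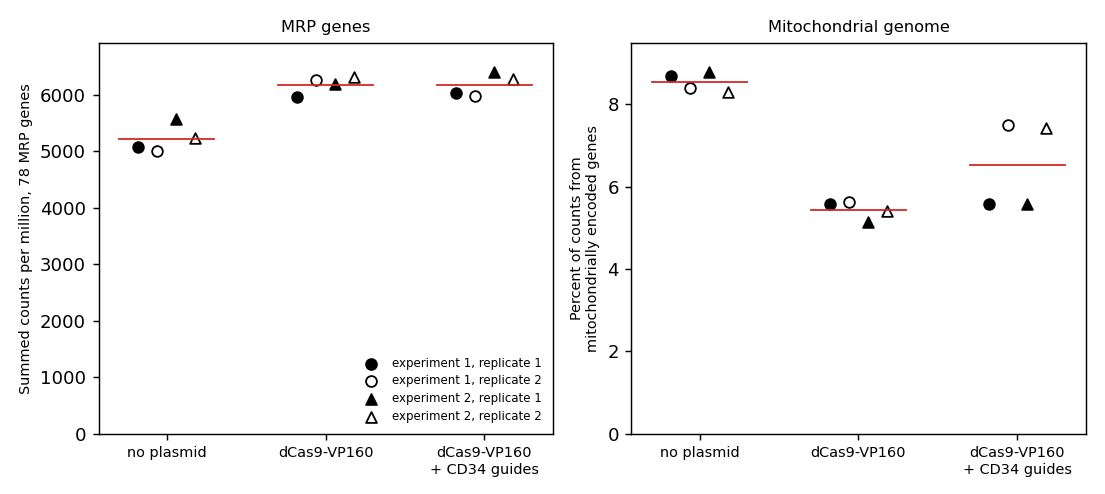
Left, summed CPM of the 78 MRP genes, and right, percent of counts from mitochondrially encoded genes, for the 12 libraries by group, with red lines at the mean of each group's 4 libraries. The no-plasmid libraries reach at most 5570 CPM on the left and at least 8.31% on the right, and the guide libraries split by technical replicate number on the right.

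For single genes, the comparison of dCas9-VP160 with no plasmid asks what the activator plasmid changed with no guide for a target. Of the 78 MRP genes, 45 rose, 5 fell and 28 did not pass the test (edgeR quasi-likelihood test with the experiment as a block, Benjamini-Hochberg adjusted p under 0.05 over all 19662 genes tested). Over all genes tested, 26.6% rose and 24.6% fell, so the share of MRP genes that rose was 57.7% and the share that fell was 6.41% against these backgrounds. The median log2 fold change was 0.19 for the MRP genes and -0.002 for all genes tested, and it was 0.22 in experiment 1 and 0.18 in experiment 2. The changes were small. With a log2 fold change of at least 0.5 also asked for, 10 MRP genes were higher (12.8%, against 11.1% of all genes) and 0 lower (against 10.4%), where 5 MRP genes had fallen by the first rule. The 4 libraries of one group lay wholly above the 4 of the other for 29 MRP genes higher with dCas9-VP160 (37.2%, against 19.4% of all genes) and for 4 lower (5.13%, against 17.7%).

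The experiments resembled each other gene by gene. The log2 fold changes had the same sign in both experiments for 69 of 78 genes, beside 16023 of all 19662 genes tested. Across the 78 genes, which are not independent replicates, Pearson's r between experiments was 0.85 and Spearman's rho 0.86. In the 4 pairs of libraries with the same experiment and replicate number, 44 genes were above 0 in every pair, 7 below 0 in every pair and 27 mixed. The shares of all genes are not given for these pairs. None of the 77 genes tested for a difference between experiments passed (edgeR interaction test, lowest adjusted p = 0.86). At an adjusted p under 0.05, 0.0111% of all genes were called. Among the MRP genes, 5 had an unadjusted p under 0.05, for which no share of all genes is given. The 5 all had the smaller value in experiment 2, MRPS18C among them with 0.76 in experiment 1 and 0.44 in experiment 2.

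**Figure D3:**
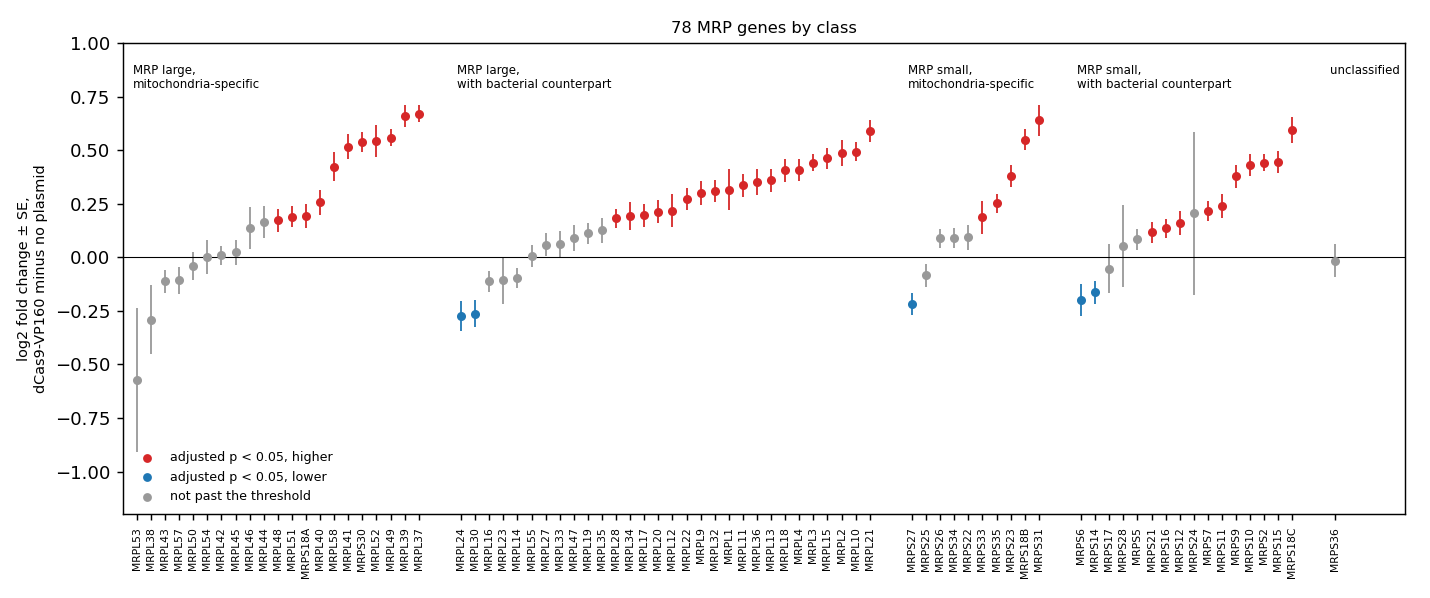
Log2 fold change of dCas9-VP160 minus no plasmid for the 78 MRP genes (points, with bars for the SE of the fit), ordered by value within classes. Of these genes 45 are higher (red) and 5 lower (blue) at an adjusted p under 0.05, and the extremes that passed are MRPL37 at 0.67 and MRPL24 at -0.27.

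Rises were found in both subunits and in both kinds of protein. For the counts that follow, the background is 26.6% of all genes higher and 24.6% lower. In the large subunit, 19 of 30 genes with a bacterial counterpart rose and 2 fell (median 0.22), and 11 of 21 mitochondria-specific genes rose and 0 fell (median 0.17). In the small subunit, 10 of 16 genes with a bacterial counterpart rose and 2 fell (median 0.18), and 5 of 10 mitochondria-specific genes rose and 1 fell (median 0.14). MRPS36, whose product is now known as a subunit of the alpha-ketoglutarate dehydrogenase complex and not of the ribosome, was not classed and had a value of -0.02 (adjusted p = 0.88). Differences between the classes were not tested. Genes with exons shorter than the median of 2539 bases gave 22 rises and 1 fall among 38, and the longer genes 23 and 4 among 40.

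MRPL37 rose most. It encodes a large-subunit protein specific to mitochondria. Its level was 162, 163, 167 and 158 CPM without plasmid and 257, 264, 261 and 251 CPM with dCas9-VP160. The groups did not overlap and the libraries within each were close, for a log2 fold change of 0.67 with an SE of 0.038 (adjusted p = 7.1e-14). MRPL39, a large-subunit protein related to a domain of threonyl-tRNA synthetase, had 49.4, 52.5, 61.6 and 60.4 CPM without plasmid and 81.2, 86.6, 94.0 and 92.6 CPM with dCas9-VP160. Experiment 2 was the higher of the 2 in both groups, and the groups did not overlap (log2 fold change 0.66, SE 0.053, adjusted p = 5.0e-11). Among the other large-subunit genes, MRPL21 rose by 0.59, MRPL49 by 0.56, MRPL52 by 0.54 and MRPL41 by 0.52 on the log2 scale. FAU, which overlaps MRPL49 on the opposite strand, rose by 0.43 (adjusted p = 9.5e-10), and its part in the MRPL49 result was not tested.

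MRPS30 is named for the small subunit, but its product sits in the large subunit and is related in sequence to that of MRPL37. It had 93.1, 95.9, 95.8 and 98.7 CPM without plasmid and 131, 127, 148 and 150 CPM with dCas9-VP160. The groups did not overlap, and the log2 fold change was 0.54 (0.45 and 0.62 in the experiments, adjusted p = 3.7e-10). MRPL58, also called ICT1, a release factor relative that became part of the large subunit and frees stalled ribosomes, had 31.6, 30.8, 31.7 and 35.4 CPM without plasmid and 41.9, 45.2, 44.9 and 42.5 CPM with dCas9-VP160. It rose by 0.42 without overlap between the groups (adjusted p = 1.0e-05). MRPL12, of the stalk that recruits translation factors, rose by 0.22 (adjusted p = 0.019), with 21.9 to 26.9 CPM without plasmid and 25.6 to 31.9 CPM with dCas9-VP160, so its groups overlapped. The gene AC139530.2 shares 68.2% of the exon bases of MRPL12 and had 0 counts.

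Among small-subunit genes MRPS31 rose most. Its mitochondria-specific product had 27.5, 24.0, 26.2 and 27.5 CPM without plasmid and 37.7, 35.5, 41.6 and 47.0 CPM with dCas9-VP160. The groups did not overlap, and the log2 fold change was 0.64 (SE 0.073, adjusted p = 3.9e-08). MRPS12, which encodes a protein of the decoding centre, rose by 0.16 (adjusted p = 0.021), with 0.24 in experiment 1 and 0.08 in experiment 2.

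MRPS18A, MRPS18B and MRPS18C are 3 human relatives of bacterial protein S18, of which MRPS18A sits in the large subunit. Despite this relation, the classes above count MRPS18A and MRPS18B as mitochondria-specific and only MRPS18C as having a bacterial counterpart. All 3 rose with dCas9-VP160, by unequal amounts. MRPS18C had 50.8, 47.0, 63.1 and 54.5 CPM without plasmid and 81.1, 83.2, 71.9 and 84.7 CPM with dCas9-VP160, which is a difference of 0.59 on the log2 scale (SE 0.062, adjusted p = 7.0e-09). MRPS18B had 75.5, 81.0, 83.9 and 73.4 CPM without plasmid and 121, 119, 109 and 108 CPM with dCas9-VP160, a log2 difference of 0.55 (SE 0.049, adjusted p = 4.0e-10). MRPS18A had 51.6, 50.8, 58.4 and 55.1 CPM without plasmid and 56.4, 62.0, 68.0 and 61.3 CPM with dCas9-VP160, a log2 difference of 0.19 (SE 0.057, adjusted p = 0.0059). The groups of MRPS18B and MRPS18C did not overlap, and those of MRPS18A did. The difference between the paralogs' fold changes was not tested. RSPH9 on the opposite strand covers 47.0% of the exon bases of MRPS18A, and ABRAXAS1 covers 40.2% of those of MRPS18C. RSPH9 had a value of 0.11 (adjusted p = 0.17), while ABRAXAS1 rose by 0.49 (adjusted p = 1.6e-06), and its part in the MRPS18C result was not tested.

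**Figure D4:**
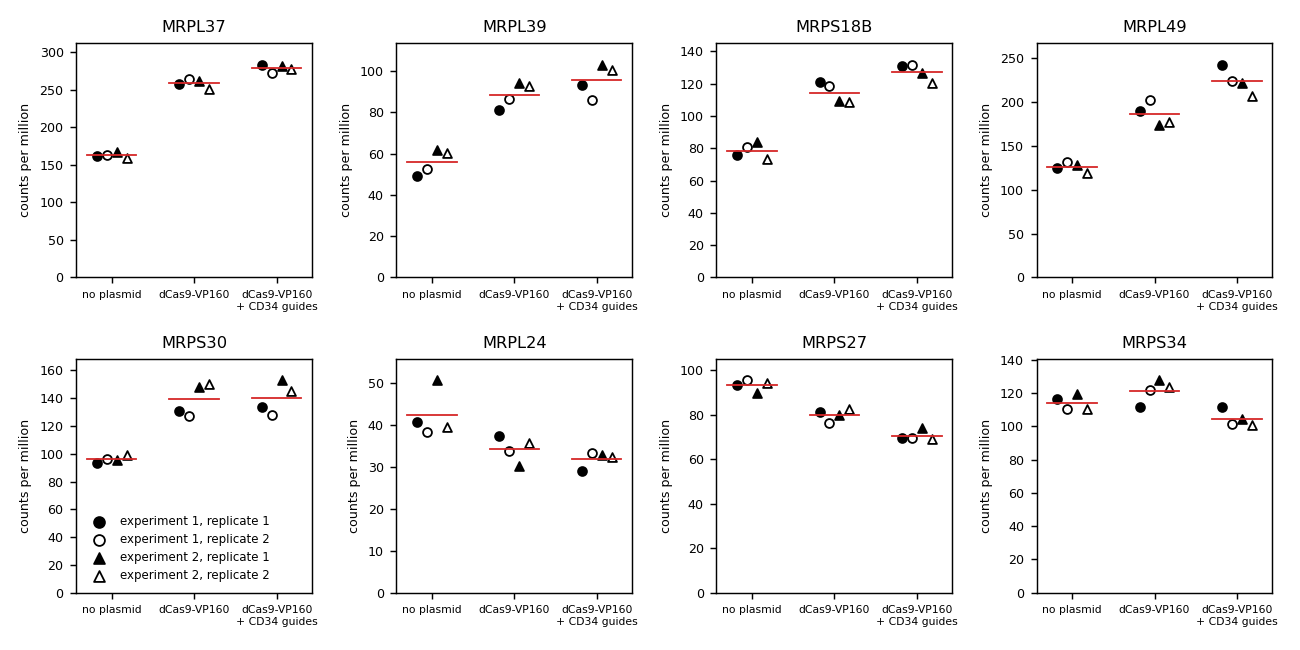
CPM of 8 MRP genes in the 12 libraries (vertical axes from 0), by group, with red lines at the mean of each group's 4 libraries. MRPL37 runs from 158 to 167 CPM without plasmid and from 251 to 264 CPM with dCas9-VP160, while MRPS27 is highest without plasmid and lowest with guides.

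The 5 genes that fell were MRPL24, MRPL30, MRPS27, MRPS6 and MRPS14, and none fell by more than 0.27 on the log2 scale. MRPS27, a small-subunit protein with RNA-binding repeats, had 93.4, 95.7, 89.9 and 94.5 CPM without plasmid and 81.1, 76.2, 79.8 and 82.4 CPM with dCas9-VP160. The groups did not overlap and both experiments fell (log2 fold change -0.22, SE 0.050, adjusted p = 6.3e-04). MRPL24, a large-subunit protein with a bacterial counterpart, had 40.7, 38.4, 50.7 and 39.4 CPM without plasmid and 37.3, 33.8, 30.1 and 35.7 CPM with dCas9-VP160. Its second experiment held most of the difference (-0.41, against -0.13 in the first), for a log2 fold change of -0.27 (adjusted p = 0.0021). MRPL30 fell by 0.26 (adjusted p = 9.2e-04), MRPS6 by 0.20 (adjusted p = 0.026) and MRPS14 by 0.16 (adjusted p = 0.013). Without the experiment as a block, 25 MRP genes were called higher and 0 lower, beside 3036 and 2528 of all genes. The 5 falls thus rest on the block, and so do part of the rises, of which 25 of 45 were kept. Under all 25 settings with a test, 24 of the rises were called in each and 0 of the falls. The share of all genes is not given for this count.

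Other proteins of the mitochondrial ribosome, named without MRPL or MRPS, did not all move the same way. For this and the next lists the background is again 26.6% of all genes higher and 24.6% lower. Of 6 such proteins, 4 rose and 1 fell. DAP3, a GTP-binding protein of the small subunit, rose by 0.53 and GADD45GIP1, a protein of the large subunit, by 0.50, while CHCHD1 fell by 0.20 and PTCD3 rose by 0.17. Of 29 genes for assembly of this ribosome and modification of its RNA, 14 rose and 5 fell. MRM3, a methyltransferase of the large ribosomal RNA, rose by 0.57, MPV17L2 by 0.56, SLIRP, an RNA-binding partner of LRPPRC, by 0.54 and ERAL1, a chaperone of the small ribosomal RNA, by 0.51. Of 13 translation factors 7 rose and 0 fell, led by the release factor MTRF1L (0.56), TACO1 (0.52), the elongation factor GFM1 (0.42) and GUF1 (0.35). The elongation factor TUFM had a value of -0.04 (adjusted p = 0.42).

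Among 19 regulators of mitochondrial gene expression and of the mitochondrial stress response, 11 rose and 1 fell, beside the same 26.6% and 24.6% of all genes. DDIT3, a stress-response transcription factor, rose by 2.15 on the log2 scale, PPARGC1A, a coactivator of nuclear genes for mitochondrial proteins, by 1.01, ATF4, a stress-response transcription factor, by 0.59 and TFAM, the packaging and transcription factor of mitochondrial DNA, by 0.45. GABPA rose by 0.12 (adjusted p = 0.033) and YY1 by 0.25 (adjusted p = 0.0014), while NRF1 had a value of -0.05 (adjusted p = 0.57). MRP genes with an ETS match in the promoter window gave 17 rises and 1 fall among 29 (median 0.16). Those with a YY1 match gave 12 and 1 among 20 (median 0.20), and those with none of the 3 motifs gave 16 and 3 among 27 (median 0.24). The share that rose was thus close to that of the whole set with or without these letters, and nothing follows from it about the factors.

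The comparison of guides with dCas9-VP160 alone asks what the CD34-gRNAs added. It shares the dCas9-VP160 libraries with the comparison above. Few MRP genes changed. MRPL49 and MRPS18B rose, MRPL4, MRPL47, MRPS34, MRPL36 and MRPS27 fell, and 71 of 78 did not pass. That is 2.56% higher and 6.41% lower, against 4.16% and 3.41% of all genes tested. The median log2 fold change was -0.004 for the MRP genes and -0.004 for all genes. No MRP gene that passed reached a log2 fold change of 0.5 (against 0.336% of all genes higher and 0.931% lower by that rule). Among the MRP genes, 16 had an unadjusted p under 0.05, for which no share of all genes is given.

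MRPL49, a mitochondria-specific large-subunit protein, had 190, 202, 174 and 177 CPM with dCas9-VP160 and 242, 224, 221 and 206 CPM with guides. All guide libraries were above all dCas9-VP160 libraries, by a log2 fold change of 0.27 (0.26 and 0.29 in the experiments, SE 0.040, adjusted p = 7.6e-05). SYVN1 and FAU on the opposite strand share 12.2% of its exon bases and had values in this comparison of 0.14 (adjusted p = 0.39) and 0.05 (adjusted p = 0.55). MRPS18B rose by 0.16 (adjusted p = 0.038), with 131, 132, 126 and 121 CPM with guides, the lowest of which lay just under the highest dCas9-VP160 library. MRPL4, a protein that lines the exit tunnel of the large subunit, had 87.9, 90.2, 86.3 and 79.1 CPM with dCas9-VP160 and 80.9, 72.3, 71.4 and 65.9 CPM with guides. It fell by 0.23 (adjusted p = 0.0053) with 1 overlapping library on each side. MRPS34, of the small subunit, had 112, 122, 128 and 124 CPM with dCas9-VP160 and 111, 102, 104 and 101 CPM with guides, and fell by 0.21 without overlap (adjusted p = 0.0082).

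MRPS27 fell again with guides, to 69.8, 69.6, 74.2 and 69.0 CPM. No guide library overlapped the dCas9-VP160 libraries (log2 fold change -0.18 in each experiment, adjusted p = 0.031). MRPL47 fell by 0.22 (adjusted p = 0.029) and MRPL36, the small zinc-binding protein of the large subunit, by 0.20 (adjusted p = 0.043). These calls were fragile: leaving out single libraries gave 1 to 5 MRP genes higher and 0 to 6 lower, and a count moved by over 1.5 times for every library but replicate 2 of experiment 1 without plasmid and replicate 1 of experiment 2 with dCas9-VP160. DESeq2 called 1 higher and 0 lower (270 and 90 of all genes), and the fit without the experiment block called 0 in either direction (1 and 0 of all genes). The split of higher and lower calls was 4 and 4 with DESeq2-type (RLE) size factors, beside 977 and 617 of all genes, and 1 and 7 when scaled by library totals alone, beside 517 and 1122.

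**Figure D5:**
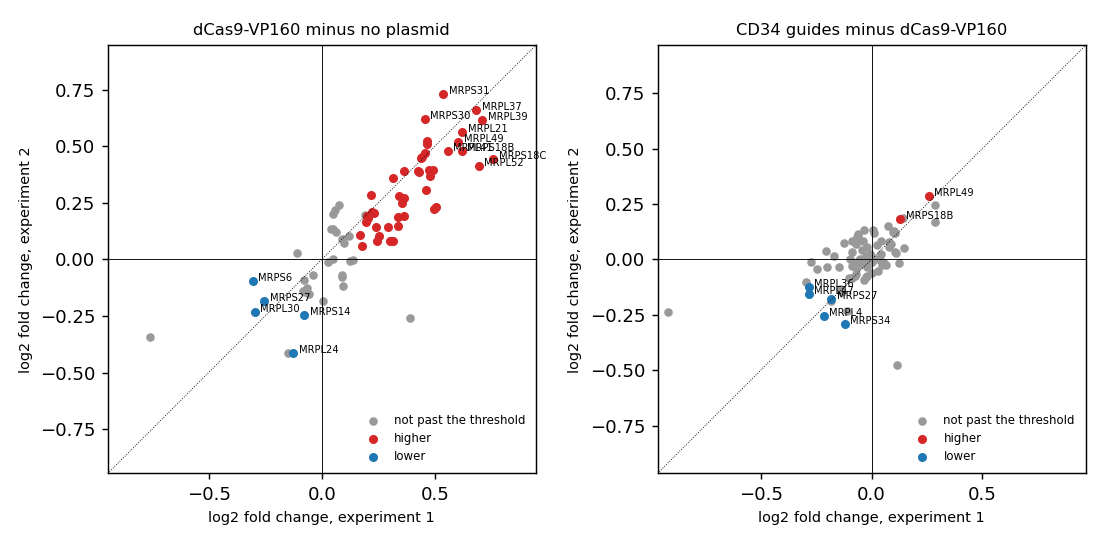
Log2 fold change of each of the 78 MRP genes in experiment 1 (horizontal) and experiment 2 (vertical), for dCas9-VP160 minus no plasmid (left) and guides minus dCas9-VP160 (right), with genes past the adjusted p of 0.05 in red (higher) and blue (lower). On the left 45 red points lie along the dotted line of equality, and on the right the points crowd around 0 with MRPL49 farthest along the line.

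Guides against no plasmid shares libraries with both comparisons above. By itself it gave 46 MRP genes higher and 7 lower (59.0% and 8.97%, against 26.7% and 25.9% of all genes), with a median of 0.18 against -0.02 for all genes. MRPL49 rose most, by 0.83 (adjusted p = 3.1e-15), from 119 to 132 CPM without plasmid to 206 to 242 CPM with guides. MRPL37 and MRPL39 rose by 0.78 each, MRPS18B by 0.71, MRPS18C by 0.65 and MRPS31 by 0.62. MRPS27 fell by 0.40 (adjusted p = 2.4e-07), MRPL24 by 0.39, MRPL43 by 0.25, MRPS14 by 0.17, MRPL30 by 0.16 and MRPS34 by 0.12. MRPL38, which averaged under 5 CPM, also fell, by 0.49 (adjusted p = 0.017). Upper-quartile scaling gave 37 higher and 14 lower, while all genes went from 5245 higher and 5102 lower to 4667 and 5885. Leaving out replicate 2 of experiment 2 without plasmid left 3 lower, beside 4374 of all genes.

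The technical replicate numbers were compared as a measure of error. Of 77 MRP genes tested, 0 passed the test between replicates 2 and 1 (edgeR quasi-likelihood test, 0.00556% of 17975 genes called), and 2 had an unadjusted p under 0.05, MRPS33 (0.18) and MRPL4 (-0.12). The difference between replicate numbers ranged from -0.23 to 0.18 over the 77 genes, with a median of -0.006. Within groups, however, the direction was uneven: 56 and 44 of 78 genes were higher in replicate 2 with dCas9-VP160 (experiments 1 and 2), 41 and 29 with guides, and 32 and 20 without plasmid. The median difference in these pairs ran from -0.090 to 0.052 for the MRP genes and from -0.0065 to 0.0091 for all genes. With that, the rise of dCas9-VP160 over no plasmid was larger among replicate 2 libraries for 62 of 77 genes, by a median of 0.09. Shares of all genes are not given for these counts. On their own, replicate 1 libraries gave 28 MRP genes higher and 6 lower with a median of 0.13, beside 4122 and 3550 of all 17348 genes tested. Replicate 2 libraries gave 44 and 3 with a median of 0.23, beside 3915 and 3513 of 17666. No single MRP gene passed the test of the difference between replicate numbers (edgeR interaction test, lowest adjusted p = 0.11). At an adjusted p under 0.05, 0.0167% of all genes were called. Among the MRP genes, 11 had an unadjusted p under 0.05, for which no share of all genes is given. MRPL51 came nearest, with 163, 141, 176 and 156 CPM without plasmid and 177, 194, 165 and 181 CPM with dCas9-VP160. Replicate 2 was the lower of each pair without plasmid and the higher of each pair with dCas9-VP160 (interaction 0.32, SE 0.089), and MRPS21, MRPL13 and MRPL32 followed with 0.31, 0.30 and 0.28. MRPS21, higher by 0.12 in the test of all libraries (adjusted p = 0.047), had a value of -0.04 in the replicate 1 libraries (adjusted p = 0.65).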

How the data were processed

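RNA sequencing libraries (SMART-Seq HT and Nextera XT, from 1 ng of total RNA, per the labels' protocols) were analysed from the deposited table of raw gene counts. Per the submitters' processing notes, the authors used Trim Galore 0.3.7, STAR 2.6.0c, the hg38 genome, Picard 2.17.1 and DESeq2 1.16.1. No source used here gives the counter or annotation release. Gene positions and exon lengths came from GENCODE 29, which matched 56812 identifiers, and promoters from RefSeq (GRCh38.p14). The authors' table of differential genes holds no MRP gene and was not used.

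Technical replicates, which the labels name as such, were summed to 6 libraries of 16359839 to 20968535 counts. Tests used edgeR 4.0.16 in R 4.3.3 (filterByExpr, TMM, robust quasi-likelihood, group plus experiment, 2 residual degrees of freedom), adjusted over 19662 genes, after the procedure was tested on simulated data. CPM are TMM-scaled, except for the summed markers, which use library totals. The experiment is a block because the design text names a second batch of cells; experiment differences correlated between groups with r of 0.277 to 0.298. The replicate contrasts used the 12 libraries. P-values of the group comparisons measure how group differences vary between the 2 experiments once the block is removed, on 2 residual degrees of freedom. The spread of each gene was pooled with that of all genes (median of 24.0 prior degrees of freedom). The test of a difference between experiments also used the 12 libraries, and its spread is that of technical replicates. The largest value that 3 counts give is 0.444 CPM.

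The genes, lists and rules were chosen with earlier results of these data known. Single genes were named as the 6 largest rises and falls per comparison (same sign in both experiments, at least 5 CPM), the 5 highest and lowest per length, the 4 lowest p in replicate and interaction contrasts, the S18 paralogs and genes of known role. List genes named are at most 4 per list by size of change, and others were named after their values were seen. Alternatives covered scaling, filters, DESeq2 1.42.0, blocks, replicates and left-out libraries.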

Additional observations from a re-analysis of the deposited data

Results flagged for a closer look

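Over 57 sets of 4 libraries checked, 2 held a library far from the other 3 relative to the range of the set, where chance gives about 1 in 20. MRPS18C had 74.4 CPM in replicate 1 of experiment 1 with guides, against 85.3 to 87.3 CPM in the other guide libraries. MRPS27 had 74.2 CPM in replicate 1 of experiment 2 with guides, against 69.0 to 69.8 CPM in the others. MRPS18C stayed higher than without plasmid, and MRPS27 lower, in all 4 guide libraries.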

How the results depend on the processing

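The median log2 fold change of the MRP genes kept its sign under every alternative run for dCas9-VP160 against no plasmid (0.13 to 0.23) and for guides against no plasmid (0.13 to 0.21); with guides against dCas9-VP160 it ran from -0.04 to 0.02. For 62 single-gene results, 1608 alternative values were compared with the main value. Of these, 154 lost their call, 16 gained one, and 3 values without a test moved by more than the spread between experiments. By this comparison 1 was counted as a change of sign: MRPS21 went to -0.042 with replicate 1 libraries alone. The ranges over the alternatives also crossed 0 for other named genes. For dCas9-VP160 against no plasmid, MRPL14 ran from -0.22 to 0.018 and MRPS28 from -0.18 to 0.26. For guides against no plasmid, MRPL51 ran from -0.018 to 0.22. Without the replicate block, the counts of MRP genes higher and lower were 25 and 0 (dCas9-VP160 against no plasmid), 0 and 0 (guides against dCas9-VP160) and 22 and 2 (guides against no plasmid), and those of all genes 3036 and 2528, 1 and 0, and 3229 and 2869. With experiment and technical replicate number as the replicate block over 12 libraries, the counts of MRP genes were 44 and 5, 3 and 6, and 42 and 8. All 17557 genes then tested gave 4911 and 4734, 780 and 666, and 4983 and 5000. For dCas9-VP160 against no plasmid, replicate 1 libraries gave 28 higher (median 0.13), beside 4122 of all genes. Replicate 2 libraries gave 3 lower (median 0.23), beside 3513 of all genes. Upper-quartile scaling gave 8 lower (median 0.15), while all genes gave 4719 higher and 5510 lower with a median of -0.042. DESeq2 gave 3 lower, with 3417 higher and 2757 lower of all genes. For guides against dCas9-VP160, RLE size factors gave 4 higher, beside 977 of all genes. The removal of mitochondrially encoded genes also gave 4, beside 981. Library totals gave 1 higher (median -0.041, 517 and 1122 of all genes) and DESeq2 1 and 0 (270 and 90 of all genes). Replicate 1 libraries gave 0 lower (median 0.024, 456 and 336 of all genes). Replicate 2 libraries gave 0 higher and 2 lower (median -0.042, 255 and 162 of all genes). Experiment 1 alone had a median of -0.029. For guides against no plasmid, upper-quartile scaling gave 14 lower, beside 5885 of all genes, and DESeq2 3, beside 2929 of all genes. Leaving out single libraries gave 38 to 49 higher and 4 to 8 lower (8 without replicate 2 of experiment 1 with dCas9-VP160), 1 to 5 and 0 to 6 (420 to 1030 and 303 to 840 of all genes; 501 and 400 without replicate 1 of experiment 1 with guides), and 36 to 49 and 3 to 8. Of all genes, leaving out single libraries gave 4637 to 5208 higher and 4122 to 4853 lower for dCas9-VP160 against no plasmid. For guides against no plasmid it gave 4770 to 5362 and 4374 to 5038 of all genes. The cause of these differences between settings was not tested. The 64 members with under 20% of exon bases shared gave 39 and 5, 2 and 4, and 41 and 5. This alternative was chosen after seeing the data. All 19662 genes gave 5234 and 4836, 817 and 670, and 5245 and 5102 in the same comparisons. MRPS24 and MRPL53, with 86 and 112 counts in all, are limited by depth.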
